A study of Mus musculus with 10 samples.

Results

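The data compared the mouse embryonic stem cell line in which SVA_D is kept with 2 lines in which SVA_D is deleted, all 3 carrying an engineered Taf1 allele. SVA_D was kept by label in conv-dSVA_F, with 2 libraries, which lacks SVA_F. It was deleted in conv-dSVA_D and in conv-dSVA_F&D, with 2 libraries each, pooled here as 4 SVA_D-deleted libraries. The wild-type line MK6, with 1 library, served as reference. These are 7 of the 10 samples of the series. A gene belonged to the set described here when both conv-dSVA_F libraries lay outside the range of the 4 SVA_D-deleted libraries in normalized counts. This held for 3502 of 15240 genes with a mean of at least 10 normalized counts, or 23%: 1877 (12.3%) lay above the range and 1625 (10.7%) below it. Of the other genes in the table, 14125 had a read but a mean under 10, of which 884 lay above and 334 below the range, and 25091 had no read.

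All 7 libraries came from C57BL/6J embryonic stem cells (mESC) grown on gelatin in serum with LIF, CHIR99021 (which inhibits GSK3) and PD0325901 (which inhibits MEK), and total RNA was sequenced from a stranded library kit. By genotype label, the 3 converted lines shared pCAGiCre[null], pSpCas9GFP[null] and pSpCas9[null], the insertions LPSwapinRed_pUC19[Taf1_3_4] and loxP[Taf1_i24], and a Taf1_humanization_hTAF1 allele at Taf1_1_2. That allele is marked mousifiedSVAdel, converted in conv-dSVA_F. It is marked mousified, dSVA2, converted in conv-dSVA_D, and mousifiedSVAdel, dSVA2, converted in conv-dSVA_F&D. The contrast is therefore not of SVA_D alone: conv-dSVA_F and conv-dSVA_F&D both lack SVA_F, while conv-dSVA_D keeps it, and no converted line that keeps both elements was compared here. Each genotype is 1 line by label, so genotype and line cannot be told apart. The labels do not say whether 2 libraries of a line came from separate cultures, so p-values measure only the spread between these libraries.

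SVA elements are hominid retrotransposons built from SINE, tandem-repeat and Alu-like sequence, and SVA_D and SVA_F are subfamilies of them. An SVA_F insertion in an intron of human TAF1 is the known genetic basis of X-linked dystonia-parkinsonism (XDP) and is known to go with lower TAF1 mRNA. TAF1 is the largest subunit of TFIID, the general transcription factor that binds core promoters and positions RNA polymerase II, and TFIID is active in embryonic stem cells.

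The converted libraries held 16588467 to 26562418 reads assigned to genes and the wild type 21274792, recovered from the normalized counts. A count of 0 allows up to 3 reads, or 2.45 to 4.18 normalized counts by library, and this floor covers counting error only. Pou5f1, the core pluripotency factor, stood between 18394 and 24255 normalized counts in all 7 libraries. The libraries differed by whole chromosomes and in markers of other cell types, and these values are given beside the results. The 2 conv-dSVA_F libraries were not equally far from the others: replicate 1 was the farther one for 64.6% of the genes above the range and 64.1% of those below.

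Taf1 itself (ENSMUSG00000031314.18, mm10 chrX:101532734-101601789, plus strand) did not belong to the set. It stood at 501 and 589 normalized counts for conv-dSVA_F, 362 and 418 for conv-dSVA_D, 1116 and 1088 for conv-dSVA_F&D and 2898 for the wild type. The conv-dSVA_F libraries lay above both conv-dSVA_D libraries and below both conv-dSVA_F&D libraries. The log2 difference from the 4 pooled libraries was -0.27 ± 0.44 (adjusted p = 0.864, limma). With 1 mean for each line, a fit described below, it was 0.48 from conv-dSVA_D (adjusted p = 0.155, limma) and -1.02 from conv-dSVA_F&D (adjusted p = 0.0139). Taf1 thus passed as lower in the comparison with conv-dSVA_F&D. How reads from the engineered allele were counted on the mouse genome was not tested.

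No gene passed the pooled test. Of 15240 genes fitted with limma on log2(normalized count + 1), 0 had an adjusted p under 0.05, which is 0% of those tested, and the lowest adjusted p was 0.129. At an unadjusted p under 0.05 there were 1895 genes (12.4%). edgeR on the recovered reads called 0 genes and DESeq2 called 500, of which 318 were higher and 182 lower in conv-dSVA_F. The pooled fit treats the 2 deleted lines as 1 group, so any difference between them counts as error.

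With 1 mean for each labelled line, limma called 412 genes (2.7%) between conv-dSVA_F and the average of both deleted lines. Of these, 284 (1.86%) were higher and 128 (0.84%) lower in conv-dSVA_F. Against conv-dSVA_D alone it called 205 (1.35%), 165 higher (1.08%) and 40 lower (0.262%), and against conv-dSVA_F&D alone 597 (3.92%), 337 higher (2.21%) and 260 lower (1.71%). These 3 comparisons share the conv-dSVA_F libraries. A gene that passed for the average did not always pass against each line alone. The calls rested on single libraries: the count for the average was 0 without conv-dSVA_F replicate 1, 122 without replicate 2, 4 without conv-dSVA_D replicate 1 and 0 without its replicate 2. It was 719 when conv-dSVA_F&D replicate 1 was left out. This is called the per-line fit, adjusted p-values below come from it, for the average of both deleted lines unless 1 line is named, and fold changes are on the log2(normalized count + 1) scale with the SE of the pooled fit.

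Among the genes outside the range, differences were mostly small. Above the range the median log2 difference was 0.59, with 475 genes at least 2-fold higher and 920 under 1.5-fold. Below it the median was -0.43, with 261 genes at least 2-fold lower and 1052 under 1.5-fold. At the edge of the rule, Cldn7, a tight-junction claudin, was just above the range: its lower conv-dSVA_F library had 111.71 normalized counts and the highest deleted library 111.70. R3hdm4 was just outside the rule, with 353.41 against 353.42. On the low side, Ptpn12, a protein tyrosine phosphatase, was just inside: its higher conv-dSVA_F library had 337.16 and the lowest deleted library 337.17. Pwp1 was just outside, with 2389.3 against 2388.8.

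Genes above the range were concentrated on chromosomes 6 and 8. On chromosome 6, 274 of 728 tested genes (37.6%) lay above and 23 below, and on chromosome 8, 390 of 796 (49.0%) lay above and 6 below. The 17 other autosomes had 3.12% to 11.5% of their genes above and 9.32% to 15.1% below. Chromosomes 6 and 8 hold 10% of the tested genes but 35.4% of those above the range, 1.78% of those below and 68.7% of the higher calls of the per-line fit. The median log2 difference was 0.34 on chromosome 6 and 0.48 on chromosome 8, and ran from -0.13 to 0.01 on the other autosomes. The lowest was chromosome 18, where 11 genes lay above and 53 below: its median was -0.01 against conv-dSVA_D and -0.29 against conv-dSVA_F&D. Of all other genes, those without coordinates included, 1213 of 13716 (8.84%) lay above and 1596 (11.6%) below. Of the 13222 with coordinates off these 2 chromosomes, 1155 (8.74%) lay above and 1561 (11.8%) below. DNA copy number was not measured.

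**Figure D1:**
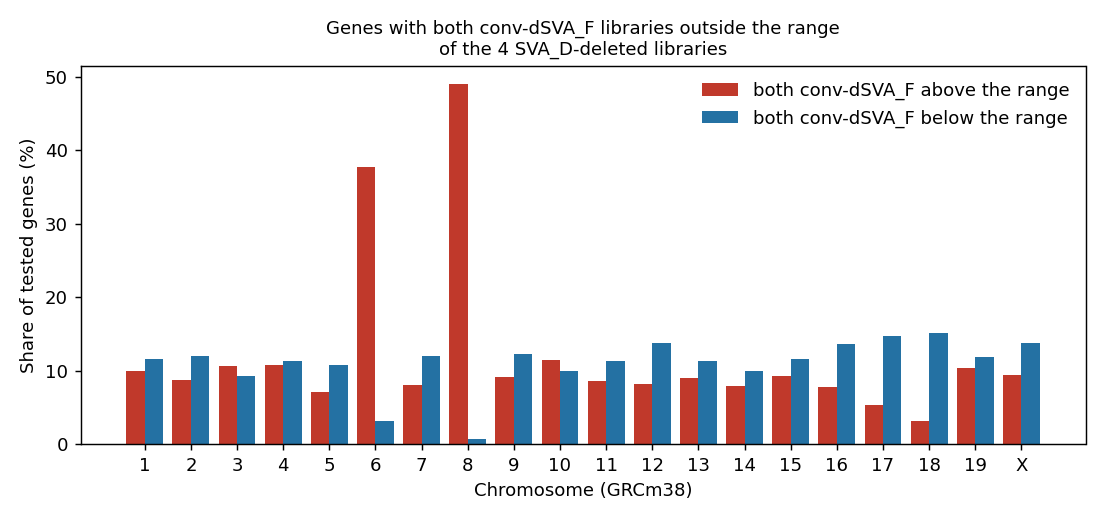
Share of tested genes, in percent, with both conv-dSVA_F libraries above (red bars) or below (blue bars) the range of the 4 SVA_D-deleted libraries, by chromosome. Chromosome 8, at 49.0%, and chromosome 6, at 37.6%, have the highest shares above the range, while the other autosomes reach at most 11.5%.

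The 2 chromosomes differed in how the higher level ran along them. With the protein-coding genes of each chromosome (mean of at least 50 normalized counts) cut into 6 parts of nearly equal gene number, the median log2 difference on chromosome 8 was 0.44 to 0.50 in every part. There conv-dSVA_D replicate 2 was itself 0.16 to 0.37 above the wild type, and replicate 1 between -0.07 and 0.20, while the conv-dSVA_F libraries were 0.37 to 0.74 above it. On chromosome 6 it was 0.36 to 0.47 in the first 4 parts and 0.11 and 0.13 in the last 2, from chr6:114282635 to chr6:149563329. In those last 2 parts the conv-dSVA_D libraries were themselves 0.49 to 0.59 above the wild type, and the median log2 difference of conv-dSVA_F was -0.17 and -0.15 from conv-dSVA_D and 0.32 and 0.44 from conv-dSVA_F&D. The conv-dSVA_F libraries were 0.29 to 0.47 above the wild type in all 6 parts of chromosome 6. In the last 2 parts 9 of 82 and 12 of 81 genes lay above the range, against 45.1% to 69.5% in the first 4.

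**Figure D2:**
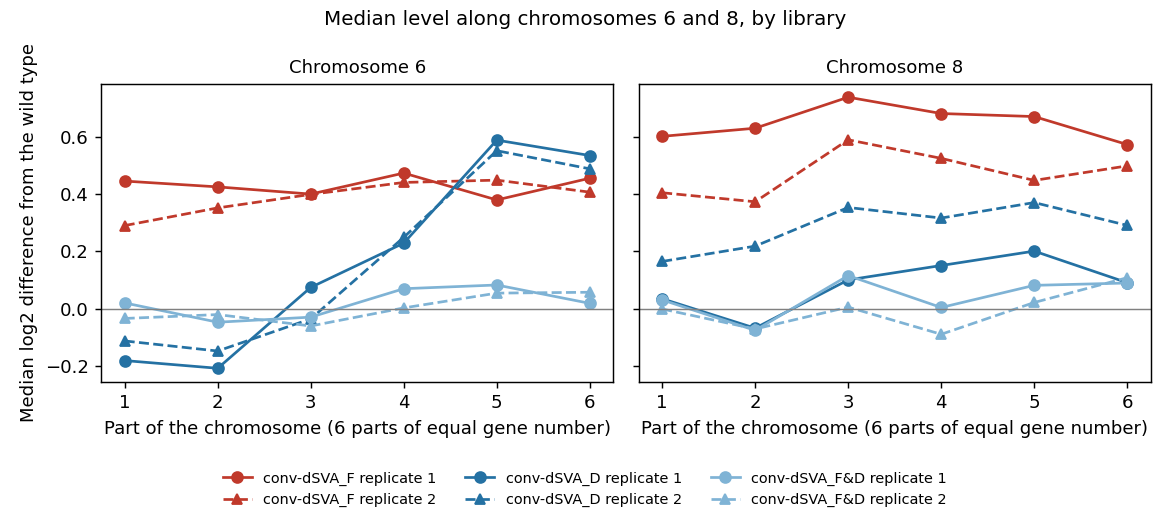
Median log2 difference from the wild type in each converted library (lines) over 6 parts of chromosomes 6 and 8 with nearly equal numbers of protein-coding genes. On chromosome 6 both conv-dSVA_F libraries lie at 0.29 to 0.47 in all parts, and the conv-dSVA_D libraries reach 0.49 to 0.59 in the last 2.

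Of the 35 gene lists, that of glycolysis had the largest share of its tested genes below the range. Glycolysis splits glucose to pyruvate. Its genes, with those for glucose uptake and lactate export, are classic targets of the hypoxia-inducible factors. The DNA letters that these factors bind in hypoxia-response elements include ACGTG. Of 21 glycolysis genes tested, 12 lay below and 1 above the range, beside 10.7% and 12.3% of all genes. In the per-line fit 7 passed as lower and 0 as higher, beside 0.84% of all genes called lower. The median log2 difference was -0.64, against 0.01 over all genes tested. The median against the wild type was -0.64 in conv-dSVA_F and 0.03 in the deleted libraries. In each of the 12 genes replicate 1 of conv-dSVA_F was lower than replicate 2. Without replicate 1 the median of the list was -0.36. Against conv-dSVA_D alone 2 passed as lower (median -0.48), and against conv-dSVA_F&D alone 9 did (median -0.79).

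The promoters of 5 of the lower genes are shown to place the ACGTG letters that the 2 lists share. They run from 250 bases before to 50 bases after the RefSeq start (GRCm38.p6) and were taken from 9 genes below the range that passed the per-line test and have 1 promoter entry. Of these 9, 5 hold ACGTG (Bnip3, Ddit4, Pgam1, Pgk1 and Slc2a1) and 4 do not (Gpi1, Ldhb, Stc2 and Tpi1). The first group is shown without Pgam1, and Ldhb stands for the second. Capitals mark ACGTG on either strand (CACGT is its reverse complement). Each is printed 5′ to 3′ on the gene's own strand.
Bnip3 (chr7:138909457-138909756, minus strand): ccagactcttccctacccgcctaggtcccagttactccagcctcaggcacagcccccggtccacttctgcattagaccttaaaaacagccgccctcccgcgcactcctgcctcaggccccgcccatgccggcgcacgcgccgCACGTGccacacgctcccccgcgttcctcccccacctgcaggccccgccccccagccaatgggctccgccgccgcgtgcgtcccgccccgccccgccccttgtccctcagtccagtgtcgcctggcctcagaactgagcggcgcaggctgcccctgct
Ddit4 (chr10:59951721-59952020, minus strand): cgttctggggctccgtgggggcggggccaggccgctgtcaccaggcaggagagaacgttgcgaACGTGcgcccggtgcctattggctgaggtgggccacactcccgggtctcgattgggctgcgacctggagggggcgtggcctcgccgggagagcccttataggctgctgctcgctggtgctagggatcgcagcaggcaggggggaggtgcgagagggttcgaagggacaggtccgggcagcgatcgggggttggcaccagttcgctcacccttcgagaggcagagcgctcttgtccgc
Pgk1 (chrX:106186850-106187149, plus strand): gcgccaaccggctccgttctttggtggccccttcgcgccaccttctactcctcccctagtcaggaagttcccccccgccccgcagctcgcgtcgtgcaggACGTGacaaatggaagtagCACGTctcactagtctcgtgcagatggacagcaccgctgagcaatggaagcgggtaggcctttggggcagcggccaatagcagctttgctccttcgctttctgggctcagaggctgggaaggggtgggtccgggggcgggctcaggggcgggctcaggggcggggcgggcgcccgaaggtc
Slc2a1 (chr4:119108495-119108794, plus strand): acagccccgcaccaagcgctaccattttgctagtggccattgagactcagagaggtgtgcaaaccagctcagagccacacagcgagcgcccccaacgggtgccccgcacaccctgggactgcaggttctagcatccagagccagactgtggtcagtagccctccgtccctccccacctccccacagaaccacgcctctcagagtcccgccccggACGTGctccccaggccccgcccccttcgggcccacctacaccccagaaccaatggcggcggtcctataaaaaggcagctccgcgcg
Ldhb (chr6:142507908-142508207, minus strand): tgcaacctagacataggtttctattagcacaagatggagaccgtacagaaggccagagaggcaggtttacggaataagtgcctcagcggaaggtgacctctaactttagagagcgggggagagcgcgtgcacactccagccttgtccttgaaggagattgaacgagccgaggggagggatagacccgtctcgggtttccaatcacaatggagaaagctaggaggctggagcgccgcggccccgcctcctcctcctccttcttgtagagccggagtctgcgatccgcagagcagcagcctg

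The Bnip3 promoter holds 1 CACGTG palindrome, which matches on both strands, Pgk1 holds 2 separate matches, and Ddit4 and Slc2a1 hold 1 each. The Ldhb window holds none, which says only that these letters are not in it. Other forms of the hypoxia-response element were not searched for. Over all 32851 promoters in the RefSeq table, 19.6% hold ACGTG on either strand, and 25.3% of the 13871 promoters of tested genes do. Of 32 promoters of 20 matched glycolysis genes, 14 (43.8%) hold it. Of 26 promoters of 17 matched hypoxia-induced genes, 15 (57.7%) do. These lists were made of genes known for glycolysis or induction in hypoxia, so their shares do not bear on the differences between lines. For the trophoblast list described below, 4 of 12 promoters (33.3%) hold ACGTG. A match is a description of the letters, and binding was not measured.

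Ldhb, the lactate dehydrogenase B subunit, stood at 707 and 905 normalized counts for conv-dSVA_F, 1593 and 1869.5 for conv-dSVA_D, 1968 and 2421 for conv-dSVA_F&D and 1335 for the wild type. Both conv-dSVA_F libraries were below all others, the wild type included. The log2 difference was -1.28 ± 0.18 (adjusted p = 0.0173). Ldhb lies at chr6:142490249-142507957, in the last of the 6 parts of chromosome 6. Pgk1, the phosphoglycerate kinase that makes ATP in glycolysis, stood at 2477 and 4429 for conv-dSVA_F, 5462 and 6937 for conv-dSVA_D, 7740.5 and 6383 for conv-dSVA_F&D and 7588 for the wild type (log2 -0.99 ± 0.22, adjusted p = 0.0403). The groups did not overlap, and replicate 1 was the lowest library. Slc2a1, the glucose transporter GLUT1, stood at 4074 and 5407 for conv-dSVA_F, 6077 and 6013 for conv-dSVA_D and 8367 and 7602 for conv-dSVA_F&D, with the wild type at 5276, inside the conv-dSVA_F range (log2 -0.56 ± 0.17, adjusted p = 0.0439).

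The enolase Eno1 (log2 -0.82 ± 0.20, adjusted p = 0.0357), the glucose-6-phosphate isomerase Gpi1 (-0.72 ± 0.16, adjusted p = 0.0439) and the phosphoglycerate mutase Pgam1 (-0.49 ± 0.12, adjusted p = 0.0449) were also lower. So was Tpi1, the triose-phosphate isomerase, on chromosome 6 (-0.86 ± 0.27, adjusted p = 0.0439). For Tpi1 the difference was -1.20 from conv-dSVA_D, where it passed, and -0.51 from conv-dSVA_F&D (adjusted p = 0.212, not passed). Tpi1 lies in part 5 of chromosome 6, where the conv-dSVA_D libraries had medians of 0.59 and 0.55 above the wild type. Aldolase Aldoc stood at 157 and 447 for conv-dSVA_F against 498 and 820.5 (conv-dSVA_D) and 1152 and 822 (conv-dSVA_F&D), and missed the threshold (-1.57 ± 0.41, adjusted p = 0.0528). The lactate exporter Slc16a3 (-1.20), Ldha (-0.65), Pkm (-0.46) and Aldoa (-0.64) lay below the range without passing. Not every step was lower. The hexokinase Hk2 overlapped (0.23, and -0.11 with chromosome medians set equal), as did Slc2a3 (0.03) and Gapdh (-0.25, and -0.59 with chromosome medians set equal), and the neuronal enolase Eno2 lay above the range (1.93, adjusted p = 0.0654). Setting medians equal shifts each chromosome as a whole. It does not follow the smaller median differences of 0.11 and 0.13 in the last parts of chromosome 6, and can shift genes there too far.

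The list of hypoxia-induced genes, without the glycolysis enzymes, had 7 of 21 tested members below and 1 above the range, beside 10.7% and 12.3% of all genes. In the per-line fit 4 passed as lower, beside 0.84% of all genes, and 0 as higher, and the median log2 difference was -0.52. Against conv-dSVA_D alone 1 passed as lower (median -0.28), and against conv-dSVA_F&D alone 8 did (median -0.66). The summed level overlapped, at 24656 to 25526 normalized counts in conv-dSVA_F and 21768 to 31456 in the deleted libraries. The median against the wild type was -0.95 in conv-dSVA_F and -0.19 in the deleted libraries. Without conv-dSVA_F replicate 1 the list's median was -0.25.

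Bnip3, a BH3-type protein of mitochondrial autophagy (chr7:138890836-138909519), stood at 666 and 1207 normalized counts for conv-dSVA_F, 1685 and 2972 for conv-dSVA_D, 2531 and 2156 for conv-dSVA_F&D and 3095 for the wild type. Both conv-dSVA_F libraries were the lowest (log2 -1.35 ± 0.26, adjusted p = 0.0327). Ddit4, an inhibitor of mTORC1, stood at 889 and 876 for conv-dSVA_F, 1608 and 1739.7 for conv-dSVA_D, 1507 and 1286 for conv-dSVA_F&D and 1213 for the wild type. Its 2 conv-dSVA_F values were nearly equal (log2 -0.79 ± 0.15, adjusted p = 0.0236). Stc2, a secreted stanniocalcin, stood at 55.3 and 161 for conv-dSVA_F against 166 and 247 (conv-dSVA_D) and 428 and 593 (conv-dSVA_F&D) and 534 for the wild type (log2 -1.75 ± 0.53, adjusted p = 0.0444). Here replicate 2 of conv-dSVA_F lay just under replicate 1 of conv-dSVA_D. For Stc2 the log2 difference was -1.09 from conv-dSVA_D (adjusted p = 0.247, not passed) and -2.40 from conv-dSVA_F&D, where it passed. Ndrg1 passed the per-line test (adjusted p = 0.0482) but its groups overlapped, and its log2 difference was -0.46 from conv-dSVA_D and -1.63 from conv-dSVA_F&D. Ndufa4l2, a mitochondrial protein known for its induction in hypoxia, had the lowest log2 difference of the named lower genes, with 26.4 and 181 for conv-dSVA_F, 266 and 622 for conv-dSVA_D, 469 and 429 for conv-dSVA_F&D and 306 for the wild type (-2.60 ± 0.62, adjusted p = 0.0553, not passed). The transcription factor Hif1a (0.21), its relative Epas1 (0.41) and the oxygen sensor Egln1 (-0.09) overlapped.

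**Figure D3:**
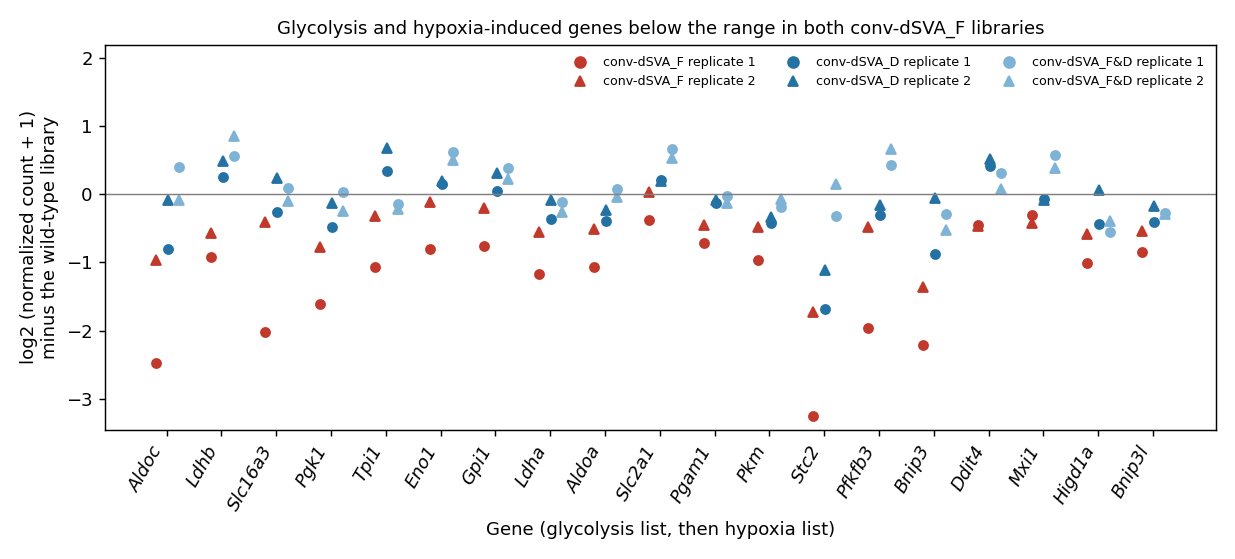
Difference of log2(normalized count + 1) from the wild-type library (vertical axis, line at 0) for glycolysis and hypoxia-induced genes, with 1 point for each converted library. For Bnip3 the conv-dSVA_F points, at 666 and 1207 normalized counts, lie under those of the 4 deleted libraries, at 1685 to 2972.

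Markers of trophoblast, the epithelium of the placenta, were among the genes above the range. Of 14 trophoblast genes tested (of 17 listed), 5 lay above and 0 below the range, beside 12.3% and 10.7% of all genes. Of the list 4 passed the per-line test as higher (beside 1.86% of all genes), and the median log2 difference was 0.92. Of the 5 above the range, 3 lie on chromosome 6, where 37.6% of all tested genes lay above. With chromosome medians set equal 4 of the list lay above, beside 11% of all genes. The summed level of the list was 6855 to 18402 normalized counts in conv-dSVA_F, 2830 to 5753 in the deleted libraries and 3443 in the wild type, and the placental marker Tpbpa had at most 3 reads in every library. Without conv-dSVA_F replicate 1 the list's median was 0.45, with 6 genes above and 2 below the range. With 1 conv-dSVA_F library the range rule is looser, and 19.6% of all genes lay above and 18.4% below. The median was 1.93 against conv-dSVA_D, with 4 passing as higher, and 0.59 against conv-dSVA_F&D, with 1 passing. Whether a few cells of this kind or a level in all cells gave these values cannot be told apart in bulk RNA.

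The simple-epithelial keratin Krt8 (chr15:101996698-102004482) stood at 1765 and 609 normalized counts for conv-dSVA_F, 67.2 and 93.1 for conv-dSVA_D, 320.5 and 508 for conv-dSVA_F&D and 438 for the wild type. The groups did not overlap, but replicate 2 of conv-dSVA_F was nearer to the conv-dSVA_F&D libraries than to replicate 1. The log2 difference was 2.53 ± 0.76 (adjusted p = 0.0236), 3.70 against conv-dSVA_D and 1.36 against conv-dSVA_F&D. Its partner keratin Krt18 followed the same order, with 2310.2 and 734 (conv-dSVA_F), 116 and 105 (conv-dSVA_D) and 448 and 497 (conv-dSVA_F&D) (log2 2.50 ± 0.69, adjusted p = 0.0236). Gata2, a GATA factor of trophoblast and blood on chromosome 6, stood at 1133 and 278 for conv-dSVA_F against 65.3 and 98.8 (conv-dSVA_D) and 98.9 and 107 (conv-dSVA_F&D) (log2 2.61 ± 0.49, adjusted p = 0.0277), with the wild type at 51.3. The trophoblast determinant Cdx2 overlapped: it stood at 168 and 77.2 in conv-dSVA_F and at 109 in conv-dSVA_F&D replicate 2.

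Rhox6 and Rhox9 are X-linked reproductive homeobox genes whose promoters are known to be silenced by DNA methylation. Rhox6 (chrX:37826910-37829857) stood at 1265 and 420.4 normalized counts for conv-dSVA_F, 73.0 and 53.1 for conv-dSVA_D, 51.3 and 199 for conv-dSVA_F&D and 162 for the wild type. It had the largest log2 difference of the named genes above the range off chromosomes 6 and 8, at 3.18 ± 0.58 (adjusted p = 0.0267). Rhox9 stood at 784 and 209 (conv-dSVA_F), 46.1 and 35.1 (conv-dSVA_D) and 44.9 and 123 (conv-dSVA_F&D) (log2 2.87 ± 0.60, adjusted p = 0.0315). For both genes the wild type was inside the range of the deleted libraries. Rhox6 and Rhox9 are close paralogs, so reads may be shared between them. They belong to a list of 26 methylation-sensitive germline genes, of which 6 lay above and 2 below the range, beside 12.3% and 10.7% of all genes. The per-line fit called 4 higher and 1 lower, beside 1.86% and 0.84% of all genes. Of the 6 above, 3 lie on chromosomes 6 and 8, and with chromosome medians set equal 3 of 26 lay above, beside 11% of all genes. The list had a median of 0.41, and of 0.11 without conv-dSVA_F replicate 1. Against the wild type the list's median was -0.34 in conv-dSVA_F and -0.77 in the deleted libraries. Its summed level overlapped, at 7491 to 10492 normalized counts in conv-dSVA_F and 5245 to 8177 in the deleted libraries. The wild type, at 13343, was above them all. The DNA methyltransferase Dnmt3b lay above the range at 2934 and 2859.8 for conv-dSVA_F against 1981 and 1261 (conv-dSVA_D) and 2435 and 2743 (conv-dSVA_F&D), and did not pass (log2 0.52 ± 0.26, adjusted p = 0.123). DNA methylation was not measured.

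Of 22 paternally expressed imprinted genes, 8 lay above and 1 below the range, beside 12.3% and 10.7% of all genes. The per-line fit called 5 higher, beside 1.86% of all genes, and 0 lower, and the median was 0.48. Without conv-dSVA_F replicate 1 the counts were 8 above and 4 below under that looser rule, with a median of 0.31. Imprinted genes are transcribed from 1 parental copy under the control of inherited DNA methylation. Of the 8 above, 4 lie on chromosome 6, where 37.6% of all tested genes lay above the range. With chromosome medians set equal 8 of the list lay above, beside 11% of all genes. Peg10, a retrotransposon-derived gene needed for the placenta (chr6:4747306-4760517), stood at 10105 and 2484 normalized counts for conv-dSVA_F, 387 and 42.5 for conv-dSVA_D, 1032 and 1803 for conv-dSVA_F&D and 594 for the wild type. Replicate 2 was within 1.5-fold of a conv-dSVA_F&D library, and the log2 difference was 5.27 from conv-dSVA_D and 1.88 from conv-dSVA_F&D (average 3.57 ± 1.22, adjusted p = 0.0431). Its neighbour Sgce, the epsilon-sarcoglycan gene mutated in a form of myoclonus-dystonia, stood at 147 and 91.4 for conv-dSVA_F, 10.6 and 15.5 for conv-dSVA_D and 18.3 and 8.36 for conv-dSVA_F&D (log2 3.08 from conv-dSVA_D and 3.12 from conv-dSVA_F&D, adjusted p = 0.0267 for the average). With chromosome medians set equal, the log2 difference of Peg10 was 3.24. Mest stood at 3465 and 3522 for conv-dSVA_F, 1879 and 1299.7 for conv-dSVA_D, 669 and 915 for conv-dSVA_F&D and 537 for the wild type. Its conv-dSVA_F replicates were close to each other (log2 1.66 ± 0.33, adjusted p = 0.0173).

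Of 20 maternally expressed imprinted genes, 3 lay above and 3 below (15% each), beside 12.3% and 10.7% of all genes, with a median of 0.06. The per-line fit called 4 higher and 1 lower, beside 1.86% and 0.84% of all genes. Against conv-dSVA_D alone 3 passed as higher, and against conv-dSVA_F&D alone 0 did. Of the 3 above, 2 lie on chromosomes 6 and 8. Phlda2, a growth-limiting gene of the placenta, stood at 1337 and 345 for conv-dSVA_F and 367 for the wild type, against 148 and 140.4 (conv-dSVA_D) and 177 and 276 (conv-dSVA_F&D) (log2 1.92 ± 0.48, adjusted p = 0.0498). H19, a long non-coding RNA, passed the per-line test as higher although its groups overlapped. It stood at 2100.0 and 554 for conv-dSVA_F, 14.4 and 9.8 for conv-dSVA_D and 514 and 1432 for conv-dSVA_F&D. Grb10, an adaptor that dampens insulin and IGF receptor signalling, was on the low side. It stood at 727 and 1089.7 normalized counts for conv-dSVA_F, 2887 and 5723 for conv-dSVA_D, 3201 and 2377 for conv-dSVA_F&D and 3603 for the wild type (log2 -1.91 ± 0.31, adjusted p = 0.0216).

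**Figure D4:**
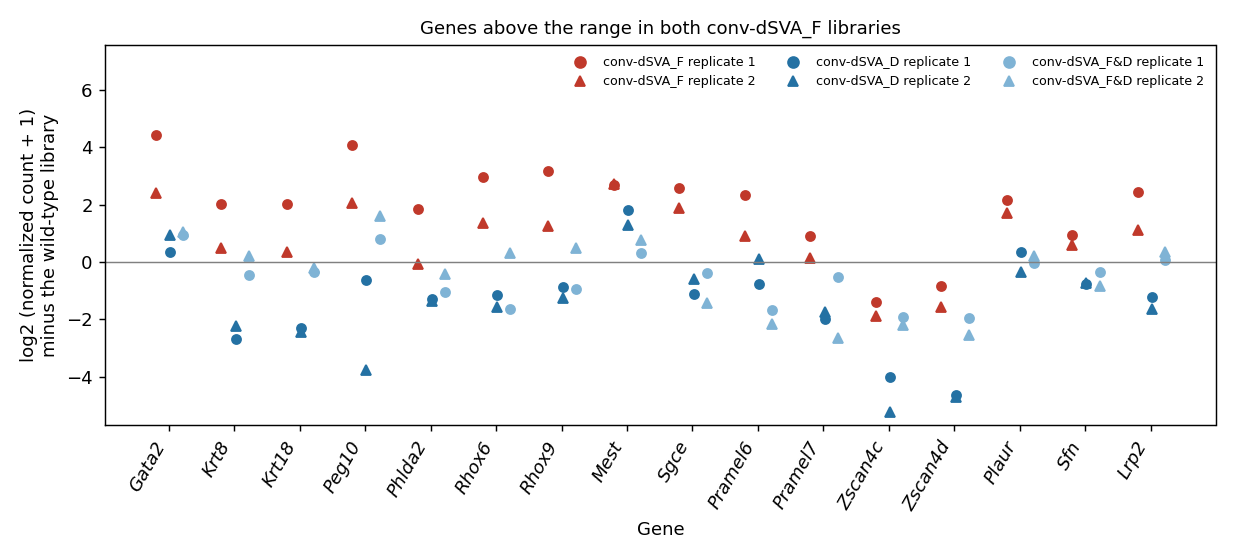
Difference of log2(normalized count + 1) from the wild-type library (vertical axis, line at 0) for genes above the range, with 1 point for each converted library. For Rhox6 the conv-dSVA_F points, at 1265 and 420.4 normalized counts, lie over those of the 4 deleted libraries, at 51.3 to 199.

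Grb10 is one of 18 IGF and growth signalling genes, of which 7 lay below and 3 above the range, beside 10.7% and 12.3% of all genes. The per-line fit called 5 lower, beside 0.84% of all genes (list median -0.27, and -0.18 without conv-dSVA_F replicate 1). The IGF-binding protein Igfbp2 (log2 -0.85 ± 0.27, adjusted p = 0.0279) and the mRNA-binding protein Igf2bp2 (-0.79 ± 0.25, adjusted p = 0.0236) were lower. For Igfbp2 the difference was -0.46 from conv-dSVA_D and -1.23 from conv-dSVA_F&D. Igfbp4 passed with overlapping groups, at 28.1 and 98.5 for conv-dSVA_F, 91.2 and 153 for conv-dSVA_D and 650.1 and 486 for conv-dSVA_F&D. Ephx2, an epoxide hydrolase of lipid metabolism, stood at 388 and 838 for conv-dSVA_F against 1884 and 1484 (conv-dSVA_D) and 2964 and 2404 (conv-dSVA_F&D), with the wild type at 2533 (log2 -1.89 ± 0.32, adjusted p = 0.0216).

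The PRAME family comprises leucine-rich-repeat proteins of germ cells and early embryos. Of 4 tested PRAME genes 2 lay above the range and 0 below, beside 12.3% and 10.7% of all genes. Pramel6, known to promote loss of DNA methylation in naive stem cells, stood at 944 and 343 normalized counts for conv-dSVA_F, 108 and 197 for conv-dSVA_D, 57.7 and 40.4 for conv-dSVA_F&D and 184 for the wild type (log2 2.75 ± 0.60, adjusted p = 0.0236). Pramel7 stood at 1617 and 949 (conv-dSVA_F), 216 and 255 (conv-dSVA_D) and 591 and 134 (conv-dSVA_F&D) and 855 for the wild type (log2 2.26 ± 0.48, adjusted p = 0.0401). The wild type was inside the deleted range for Pramel6 and between the groups for Pramel7.

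The 2-cell-like state is a short-lived state of single cells in stem cell cultures that resembles the 2-cell embryo. Of its 16 tested genes, 3 (18.8%) lay above the range and 0 below, beside 12.3% and 10.7% of all genes. The per-line fit called 2 higher, beside 1.86% of all genes. The list's median log2 difference was 1.55, and 1.14 without conv-dSVA_F replicate 1. It was 2.39 against conv-dSVA_D, with 5 passing as higher, and 0.43 against conv-dSVA_F&D, with 0 passing. The summed level overlapped, at 7629.8 to 8610.1 normalized counts in conv-dSVA_F and 6944 to 11792 in the deleted libraries. Zscan4d stood at 242 and 142 for conv-dSVA_F, 16.3 and 15.5 for conv-dSVA_D and 109.9 and 72.4 for conv-dSVA_F&D, all below the wild type at 428 (log2 2.25 ± 0.76, adjusted p = 0.0236). Against the wild type the list's median was -1.74 in conv-dSVA_F and -3.32 in the deleted libraries. The Zscan4 copies are nearly identical and may share reads.

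Naive pluripotency genes, which keep stem cells in the state of the early epiblast, had the second largest share below the range among the 35 lists. Of 20 tested, 9 (45%) lay below and 1 above the range, beside 10.7% and 12.3% of all genes. The per-line fit called 2 lower, beside 0.84% of all genes (list median -0.26, and -0.15 without conv-dSVA_F replicate 1). The summed level did not overlap: it was 164597 to 175355.5 normalized counts in conv-dSVA_F and 185811 to 209602 in the deleted libraries. Those that passed were Tcl1, a co-activator of AKT, at 850.0 and 1199 for conv-dSVA_F against 1989.5 and 2981 (conv-dSVA_D) and 2148 and 1762 (conv-dSVA_F&D) (log2 -1.11 ± 0.22, adjusted p = 0.0267) and the factor Klf2 (-0.53 ± 0.14, adjusted p = 0.0331). Sox2 (-0.35) and Esrrb (-0.40) lay below the range and did not pass, and Pou5f1 (-0.01) and Nanog (-0.05, or -0.38 with chromosome medians set equal) overlapped. That setting shifts each chromosome as a whole, although the difference was smaller in the last parts of chromosome 6. Zfp42, on chromosome 8, lay above the range at 0.40 but stood at -0.06 with chromosome medians set equal.

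Nodal signalling, a TGF-beta pathway of the early embryo, and its feedback inhibitors were represented by 13 Nodal and BMP targets. Of these targets 5 lay below and 2 above, beside 10.7% and 12.3% of all genes (median -0.20). Lefty1, a secreted Nodal inhibitor, stood at 75.7 and 318 for conv-dSVA_F, 346 and 971 for conv-dSVA_D, 646 and 1081 for conv-dSVA_F&D and 476 for the wild type. Its relative Lefty2 stood at 584 and 1229 (conv-dSVA_F), 2515 and 7916 (conv-dSVA_D) and 1908 and 1762 (conv-dSVA_F&D), with the wild type at 998, inside the conv-dSVA_F range. Neither passed (log2 -2.16 ± 0.57 with adjusted p = 0.0654, and -1.75 ± 0.54 with adjusted p = 0.0507). The BMP target Id1 went the other way, at 1907 and 1069 for conv-dSVA_F against 472 and 882 (conv-dSVA_D) and 223 and 368 (conv-dSVA_F&D) (log2 1.73 ± 0.45, adjusted p = 0.0267). The list of 16 formative and primed genes had 7 below and 1 above, beside the same shares of all genes. The lists share members: Lefty1, Lefty2 and Nodal were counted below in this list and among the Nodal and BMP targets. Tdgf1 was counted below in the naive list and among the Nodal and BMP targets. The median of the formative and primed list was -0.44, and -0.26 without conv-dSVA_F replicate 1.

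Several large differences fell outside these lists. Lrp2, an endocytic receptor of epithelia, stood at 5304 and 2110.3 normalized counts for conv-dSVA_F, 421 and 318 for conv-dSVA_D, 1025 and 1247 for conv-dSVA_F&D and 983 for the wild type (log2 2.38 ± 0.55, adjusted p = 0.0184). The antisense gene Rbfaos stood at 1222 and 1198 for conv-dSVA_F, 157 and 131 for conv-dSVA_D and 260.0 and 401 for conv-dSVA_F&D, and had the lowest per-line p of the named genes (log2 2.48 ± 0.39, adjusted p = 0.00377). No source used here states whether reads were counted by strand, so reads of its partner gene Rbfa could be among them. Plaur, the urokinase receptor, stood at 351 and 260.0 for conv-dSVA_F against 99.9 and 62.0 (conv-dSVA_D) and 76.0 and 90.5 (conv-dSVA_F&D), with the wild type at 78.6 (log2 1.89 ± 0.30, adjusted p = 0.0236). Its conv-dSVA_F values were close to each other compared with their distance from the rest. Acta2, smooth-muscle actin, stood at 115 and 79.2 for conv-dSVA_F, 30.7 and 12.2 for conv-dSVA_D, 14.7 and 4.18 for conv-dSVA_F&D and 299 for the wild type (log2 2.83 ± 0.66, adjusted p = 0.0383). The fibroblast list to which Acta2 belongs had 3 of 11 tested genes above and 2 below, beside 12.3% and 10.7% of all genes. The list's summed level was 13089 to 15224 in conv-dSVA_F, 21064 to 30927 in the deleted libraries and 17156 in the wild type. Its members Lum and Twist2 had at most 3 reads in every library, and fibronectin (Fn1) was lower (log2 -0.89 ± 0.18, adjusted p = 0.0236).

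The lists of this paragraph stand beside 12.3% of all genes above the range and 10.7% below. Of 18 TFIID subunits, TAF1 itself included, 0 lay above and 4 below the range, with a median of -0.10. Against the average of both deleted lines 0 passed in the per-line fit (limma), and the lowest adjusted p was 0.192, for Taf3. None passed against conv-dSVA_D alone. Against conv-dSVA_F&D alone 2 passed: Taf1 as lower, as given above, and Taf12 as higher (log2 0.84, adjusted p = 0.0242). Those below were Taf3 (log2 -0.52 ± 0.20), Taf4 (-0.33), Taf7 (-0.17, and -0.01 with chromosome medians set equal) and Taf9 (-0.88, at 6.09 to 15.6 normalized counts in the converted libraries). Of 21 X-linked genes near Taf1, 2 lay above and 2 below. Of these genes the cationic amino acid transporter Slc7a3 passed as lower (log2 -0.68 ± 0.21, adjusted p = 0.0434). It stood at 2873 and 3867 for conv-dSVA_F against 6720.5 and 6111 (conv-dSVA_D) and 3894 and 5047 (conv-dSVA_F&D). Its log2 difference was -0.94 from conv-dSVA_D, where it passed, and -0.41 from conv-dSVA_F&D (adjusted p = 0.199, not passed). Of 20 dystonia-related genes, 3 lay above and 4 below, and Sgce passed as higher and Slc2a1 as lower. The general transcription factors and Mediator had 2 of 26 above and 1 below. Both genes that passed as higher, the polymerase subunit gene Polr2c (0.63 ± 0.14) and the TFIIE subunit gene Gtf2e2 (0.59 ± 0.16), lie on chromosome 8.

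Other lists are given by their counts, beside 12.3% of all genes above the range and 10.7% below. Of 40 ribosomal protein genes 1 lay above and 1 below, and of 21 p53 targets 1 and 1. Among 25 respiratory chain subunits 2 lay above and 3 below. Of 22 cholesterol synthesis genes 3 lay above and 0 below, and the 2 that passed, Msmo1 (0.63 ± 0.12) and Mvd (0.70 ± 0.15), lie on chromosome 8. Of 21 retrotransposon silencing factors 2 lay above and 2 below, and of 12 DNA methylation enzymes 1 lay above. Of 20 genes of G2 and M phase 1 lay above and 5 (25%) below, none of them on chromosomes 6 or 8, with a list median of -0.04. They included the spindle checkpoint kinase gene Bub1b (-0.48 ± 0.13, adjusted p = 0.0551, not passed). Of 9 mesoderm and ectoderm genes 2 lay above, both on chromosome 8, of 14 primitive endoderm genes 1 and 1, and of 3 blood genes 0 and 0.

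The wild type lay nearer to the deleted libraries for 2154 of the 3502 genes outside the range (61.5%), and for 52.7% of the genes that overlapped. On chromosomes 6 and 8 this held for 528 of 664 genes above the range (79.5%). Among all other genes, those without coordinates included, it held for 653 of 1213 above (53.8%) and 953 of 1596 below (59.7%). Genes outside the range were picked for their conv-dSVA_F values, and the conv-dSVA_F mean rests on 2 libraries against 4. That choice alone can place a further library nearer to the deleted mean, so these shares do not measure a departure from the wild type. The wild type was within the range of the deleted libraries for 1430 genes (40.8%) and within that of the 2 conv-dSVA_F libraries for 395 (11.3%). A range of 4 libraries is wider than a range of 2, so the last shares are not comparable with each other. Genes with the wild type in the conv-dSVA_F range included Lgals3, a galectin, at 1095 and 577 for conv-dSVA_F and 643 for the wild type against 245 and 329.8 (conv-dSVA_D) and 343 and 383 (conv-dSVA_F&D) (log2 1.31 ± 0.27, adjusted p = 0.0315). Another was Acsl6, a long-chain acyl-CoA synthetase, at 134 and 202 for conv-dSVA_F and 191 for the wild type against 75.9 and 74.3 (conv-dSVA_D) and 101 and 36.2 (conv-dSVA_F&D) (log2 1.27 ± 0.42, adjusted p = 0.127, not passed).

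**Figure D5:**
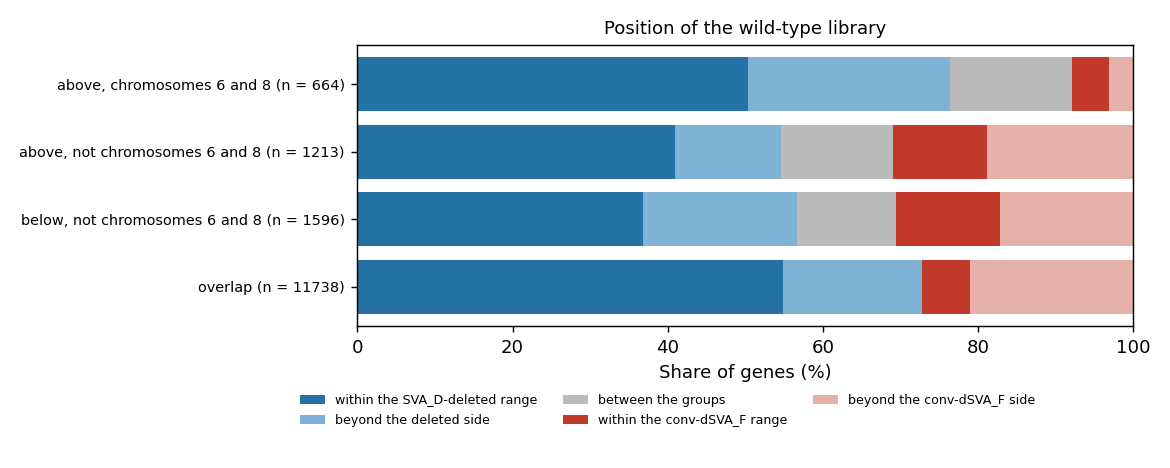
Share of genes, in percent, by where the single wild-type library lay relative to the ranges of the conv-dSVA_F and SVA_D-deleted libraries, for sets of genes given with their number. The wild type was within the deleted range (dark blue) for 50.3% of the 664 genes above the range on chromosomes 6 and 8. Among the other genes, which include those without coordinates, this held for 41.0% of the 1213 above and 36.8% of the 1596 below.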

How the data were processed

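RNA-seq of mouse embryonic stem cells was used from 7 of 10 samples; the pre-conversion line and the striatal libraries were not analysed here. The deposited unit is a signal: gene counts that the authors divided by size factors, with DESeq2 named in the submitters' processing notes. Those notes also name STAR 2.7.3, featureCounts 1.6.3, deepTools 3.1.0, Trimmomatic 0.36 and Picard 2.18.20, and mm10 as build; their roles, the gene annotation and the use of strand are not given in the sources used here. All positive values were whole multiples of 1 read's worth within 0.1 read, so reads could be recovered. Of 54456 genes, 50618 matched 1 gene of GENCODE M21 by name (93.0%), which gave the coordinates.

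Genes with a mean of at least 10 normalized counts (15240) were fitted with limma 3.58.1 in R 4.3.3 on log2(value + 1), with a variance trend and Benjamini-Hochberg adjustment at 0.05. The main fit had means for conv-dSVA_F, the 4 SVA_D-deleted libraries and the wild type; the alternative had 1 mean for each of the 4 labelled groups. edgeR 4.0.16 and DESeq2 1.42.0 ran on the recovered reads as alternatives. Other alternatives changed the pseudocount, the filter, the scaling, the chromosomes and the libraries. The scripts were tested on simulated data.

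The members, the 35 gene lists and the tests were chosen with earlier results of these data known. Named genes were Taf1, the largest differences per direction on and off chromosomes 6 and 8 (mean of at least 100, groups not overlapping, none past the pooled threshold), the members of each list with the smallest p, genes at the edges of the range rule, and genes by the place of the wild type. The list members past the threshold of the alternative fit, other list members given with a log2 value, the promoter letters and the parts of chromosomes were added after their values were seen. Promoters are RefSeq entries on GRCm38.p6, matched by symbol.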

Additional observations from a re-analysis of the deposited data

Results flagged for a closer look

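In 6 of 100 named genes, 1 library among the 4 SVA_D-deleted ones stood apart from the other 3, with a gap on the log2 scale that filled more of the group's range than the critical value of Dixon's test allows. Chance flags about 1 in 20 such groups, so this number is near what it gives. In Tmc7, a transmembrane channel-like gene, conv-dSVA_D replicate 1 was low at 105 normalized counts. In Gata2 the same library was low at 65.3. In Dusp6, a phosphatase that dampens ERK signalling, it was high at 783. In Atp6v0a4, a proton pump subunit, conv-dSVA_F&D replicate 1 was high at 396. In Eif2s3y, a Y-linked translation factor gene, conv-dSVA_F&D replicate 1 was high at 1327. In R3hdm4, conv-dSVA_F&D replicate 2 was low at 263.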

How the results depend on the processing

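Neither the pooled count of 0 genes nor the counts of the fit with 1 mean per labelled group were stable to every choice. In place of the pooled test, the fit with 1 mean per group called 412 genes. The pooled test called 41 without the low-value filter and 500 with DESeq2. It called 0 without the wild type, without a variance trend, with a pseudocount of 0.5 or 5, with a mean of at least 50, with TMM factors, with edgeR, without chromosomes 6, 8, 18 and Y, with chromosome medians set equal, and without any 1 converted library. The alternatives named next were added after the data were seen, except 1 mean per group itself. With 1 mean per group, the average count of 412 became 0 without a variance trend, 0 without the low-value filter, 85 (37 higher, 48 lower) without chromosomes 6, 8, 18 and Y, 127 (61 higher, 66 lower) with chromosome medians set equal, and 1031 with DESeq2. Leaving out 1 library each moved it from 0 to 719. Against conv-dSVA_D, 205 became 1 without a variance trend, 0 without the filter, 126 without those chromosomes and 729 with DESeq2, and 0 to 488 without 1 library each. Against conv-dSVA_F&D, 597 became 0 without a variance trend, 0 without the filter, 183 without those chromosomes, 176 with chromosome medians set equal and 1211 with DESeq2, and 0 to 881 without 1 library each. A library left alone in its group is assumed to vary like the others. The 3502 genes outside the range became 3178 with chromosome medians set equal (1681 above, 1497 below) and 4453 to 4766 without 1 deleted library each. With 1 conv-dSVA_F library alone they were 5788 (without replicate 1) and 7200 (without replicate 2), since fewer libraries have to lie outside. Of 116 named genes, 114 kept their direction in every setting run; the low-count gene Csf1r and Cox4i1, on chromosome 8, changed sign in 1 setting each and passed in none. No paired analysis was possible because the labels carry no replicate numbers. The cause of these changes was not tested. Depth limits genes near the floor of 3 reads.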
